A study of Mus musculus with 2 samples.

Results

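The 82 interleukin and interleukin receptor genes described here are the genes of a deposited DNase I table whose symbol begins with Il and a digit, without Il6ra, Il6st and Il3ra. The table lists 22605 genes in all. The rule uses no measured value, but it was set with earlier results of these data known. By their known products, 41 of the 82 are ligand genes, with the IL-1 receptor antagonist gene Il1rn counted among them, and 39 are receptor genes. The other 2 are Il4i1, which encodes an L-amino acid oxidase, and Il18bp, which encodes a secreted binding protein of IL-18.

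M1 cells are an established line from a mouse myeloid leukemia. They grow as immature cells and take on features of macrophages when IL-6 is added. DNase I accessibility was profiled by sequencing (DHS-seq) in 1 library of M1 cells without IL-6 (M1) and in 1 library of M1 cells grown with IL-6 for 4 to 5 days (M1+IL-6). According to the labels, both were murine myeloid progenitor M1 cells from the same range of passages, with bone-marrow as the source, in RPMI medium with horse serum. With 1 library per condition and 1 cell line, no difference reported here has a replicate check, and a smaller share of cells with open chromatin cannot be told apart from less signal per cell.

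In DHS-seq, a light DNase I digestion of nuclei frees small pieces of DNA from accessible chromatin, and these pieces are sequenced. For each transcript the table gives the mean signal and its SD over the 700-bp windows that the coding span touches, from the start codon to the stop codon with the introns included. A level below is this mean in reads per window. A read counted 1 in M1, and 1.03816 in M1+IL-6, where the deposited values had been scaled. Non-overlapping coding spans held 9119202 reads in M1 and 8558661 reads in M1+IL-6, of which the 82 genes held 19928 and 18681. A ratio is the scaled signal of M1+IL-6 over that of M1 with 0.5 reads added to each, and its 95% interval (Clopper-Pearson) covers counting error only and compares these 2 libraries, not the conditions. Ratios were read only where at least 1 library held more than 21 reads for the gene, which left 81 of the 82 members and 18472 genes in all. The scaling sets every direction: the median log2 ratio of all genes was 0.03 as deposited, and 1.89 when the libraries were scaled on single windows with at least 22 reads in both.

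Interleukins are small secreted proteins through which blood cells and tissue cells signal to each other. They act on receptors built from a ligand-binding chain and shared signaling chains, most of which pass the signal through Janus kinases and STAT proteins, while receptors of the IL-1 family and the IL-17 family use adaptor proteins that lead to NF-kB. In myeloid cells many ligand genes are kept silent and are switched on by inflammatory signals, and opening of their promoters and enhancers by PU.1, C/EBP and AP-1 factors is a known part of that control.

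The windows follow coding spans, so only some of them reach a promoter. The annotated start site lay within the windows of 46 members, 28 ligand genes and 18 receptor genes, and a promoter of 250 bases before to 50 bases after the start lay wholly within the windows of 29 members. The promoters below are shown because they lie wholly within the windows of genes whose signal differed between the libraries. They were taken from the reference genome NCBIM37 with GENCODE M1 start sites, and are written 5′ to 3′ on the strand of the gene. Capitals mark matches, on either strand, to the motifs STAT (TTCNNNGAA), C/EBP (TTNNGNAA), PU.1 (GAGGAA), AP-1 (TGANTCA), Runx (TGTGGT) and the NF-kB consensus, and no matches in them overlap. The Il6 promoter is chr5:30339451-30339750 on the plus strand, Il12a chr3:68494316-68494615 on the plus strand and Il2rg chrX:98463545-98463844 on the minus strand.
Il6: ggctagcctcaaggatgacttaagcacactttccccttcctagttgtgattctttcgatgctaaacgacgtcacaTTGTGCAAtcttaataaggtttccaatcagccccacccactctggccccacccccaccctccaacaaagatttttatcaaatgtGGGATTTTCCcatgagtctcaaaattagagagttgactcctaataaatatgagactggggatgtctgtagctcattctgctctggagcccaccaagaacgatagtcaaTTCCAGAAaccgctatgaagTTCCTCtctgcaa
Il12a: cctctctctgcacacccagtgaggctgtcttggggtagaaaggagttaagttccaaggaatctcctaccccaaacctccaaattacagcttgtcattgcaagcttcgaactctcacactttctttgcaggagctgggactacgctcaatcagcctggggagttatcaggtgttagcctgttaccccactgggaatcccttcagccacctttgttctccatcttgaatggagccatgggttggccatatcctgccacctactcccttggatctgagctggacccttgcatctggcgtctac
Il2rg: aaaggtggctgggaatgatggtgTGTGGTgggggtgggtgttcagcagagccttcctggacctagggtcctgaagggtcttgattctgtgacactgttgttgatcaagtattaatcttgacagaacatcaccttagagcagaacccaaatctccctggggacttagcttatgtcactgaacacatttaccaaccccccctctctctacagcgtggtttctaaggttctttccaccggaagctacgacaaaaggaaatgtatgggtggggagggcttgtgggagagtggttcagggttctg

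Counted from the start site as 0, the Il6 promoter held C/EBP matches at -175 to -168 and at 17 to 24, an NF-kB match at -91 to -82 and a PU.1 match at 37 to 42. The Il2rg promoter held a Runx match at -227 to -222, while the Il12a window held none of these letters. Such matches are common. Of 22587 promoters of this length, 38.3% held the C/EBP letters, 27.9% those of PU.1, 15.2% those of Runx, 8.88% those of NF-kB, 7.96% those of STAT and 6.80% those of AP-1. Among the 82 members the shares were 46.3%, 32.9%, 23.2%, 14.6%, 11% and 15.9% in the same order. A match describes the letters only and says nothing of a factor in these cells.

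Il6 and Il1b encode inflammatory cytokines of macrophages, and at the deposited scaling their ratios lay on opposite sides of 1. The 10 windows of Il6 held 88 reads in M1 and 49 in M1+IL-6, levels of 8.80 (SD between windows 15.5) and 5.09 (SD 5.42). The log2 ratio was -0.78, a ratio of 0.580 (95% interval 0.399 to 0.829). In M1 the strongest window of Il6 must have held between 34 and 53 reads, as follows from the mean and SD, whereas in M1+IL-6 it held between 10 and 19. The Il6 windows, which include the whole promoter shown above, thus held a concentrated site in M1, and the reads were spread more evenly in M1+IL-6. The table does not say in which of the 10 windows the site lay. Repeated sequence made up 27.9% of the 32-base words of the Il6 span.

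Il1b showed no site in either library. Its 8 windows held 57 reads in M1 and 63 in M1+IL-6, levels of 7.12 (SD 2.53) and 8.18 (SD 3.66), with a log2 ratio of 0.20 and a ratio of 1.15 (95% interval 0.789 to 1.67). The strongest window of Il1b held between 9 and 13 reads in M1 and between 10 and 16 in M1+IL-6. These levels lay at the 46.3 and 50.3 percentiles of all genes. The start site of Il1b, at position 129196875 of chromosome 2, lies outside its windows, so the Il1b promoter is not measured here. The neighboring gene Il1a, which encodes the other classical IL-1 ligand, went from 83 to 84 reads over 13 windows (log2 ratio 0.07).

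**Figure D1:**
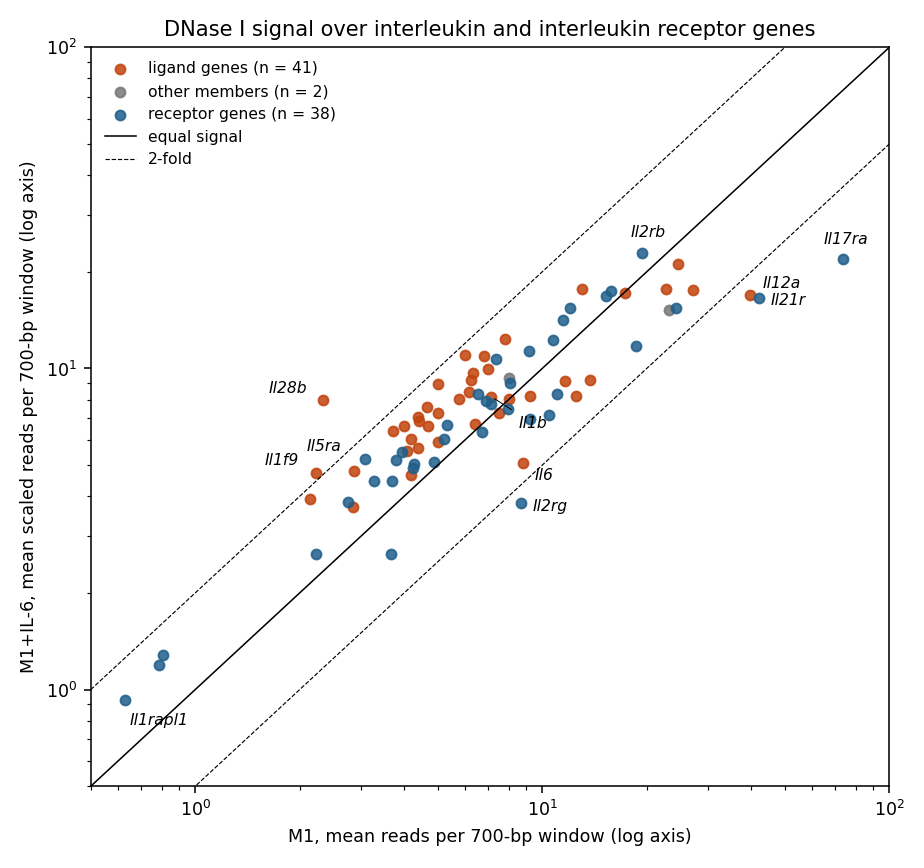
Mean DNase I signal per 700-bp window in M1 (x axis) and M1+IL-6 (y axis), both on log axes, for the 81 members that passed the read minimum. At the deposited scaling 58 of 81 points have a ratio above 1, while the 3 highest in M1 (Il17ra 73.7, Il21r 42.0, Il12a 39.8 reads per window) lie below the lower 2-fold line.

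As a set, ligand and receptor genes had low signal in both libraries. The median level of the 81 members was 6.52 reads per window in M1 and 7.72 in M1+IL-6, against 9.33 and 9.27 for all 18472 genes. Ligand genes had medians of 6.14 and 8.05, and receptor genes of 7.01 and 7.05. The spans differ in size, with a median of 8 windows for ligand genes and 32.5 for receptor genes. In M1 the levels ranged from 0.629 (Il1rapl1) to 73.7 (Il17ra), and in M1+IL-6 only from 0.927 (Il1rapl1) to 22.9 (Il2rb). The highest member was 11.3 times the median member in M1 and 2.97 times in M1+IL-6.

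At the deposited scaling more members had a ratio above 1 than below, and 4 of the 7 members with a mean of at least 20 reads per window over both libraries (Il17ra, Il21r, Il12a and Il17d) had an interval below 1. The ratio was below 1 in 6 of these 7 members, and in 2465 of all 2785 genes at that level. The median log2 ratio was 0.25 over the 81 members, 0.46 over 41 ligand genes and 0.21 over 38 receptor genes, beside 0.03 over all genes, and the median of receptors was 0.24 below that of ligands. With more than 50 reads required that difference was -0.16, and among members at 10 to 20 reads per window the order was the other way (ligands -0.18, n = 6, receptors 0.17, n = 8). Of the members that passed the read minimum, 7 ligand genes and 1 receptor gene did so through M1+IL-6 only. These medians became 2.27 for ligands and 2.04 for receptors when the scaling was taken from single windows, with the median of all genes at 1.89. The ratio was above 1 in 30 of 41 ligand genes (73.2%) and in 27 of 38 receptor genes (71.1%), and in 51.7% of all genes. The 95% interval lay above 1 in 28 members, 14 ligand and 14 receptor genes, which is 34.6% of the members where 29% of all genes did so. It lay below 1 in 14 members (5 ligand genes, 8 receptor genes and Il4i1), or 17.3%, where 34.4% of all genes did so. A decrease of at least 2-fold was found in 4 of 81 members (4.94%) and in 13.4% of all genes, and an increase of at least 2-fold in 2 members (2.47%) and in 1.69% of all genes. Both of these 2, Il28b and Il1f9, passed the read minimum through M1+IL-6 only, and with no minimum 4.95% of all genes were at least 2-fold higher. With the single-window scaling the counts of members were 0 and 77. The ratio fell with the level in members and in all genes alike. The median log2 ratio was 0.45 over 19 members at 0 to 5 reads per window (all genes 0.37), 0.34 over 40 members at 5 to 10 (all genes 0.17), 0.14 over 15 members at 10 to 20 (all genes -0.11) and -0.63 over 7 members at 20 and over (all genes -1.19). The median of the members was above that of all genes in each of these ranges.

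**Figure D2:**
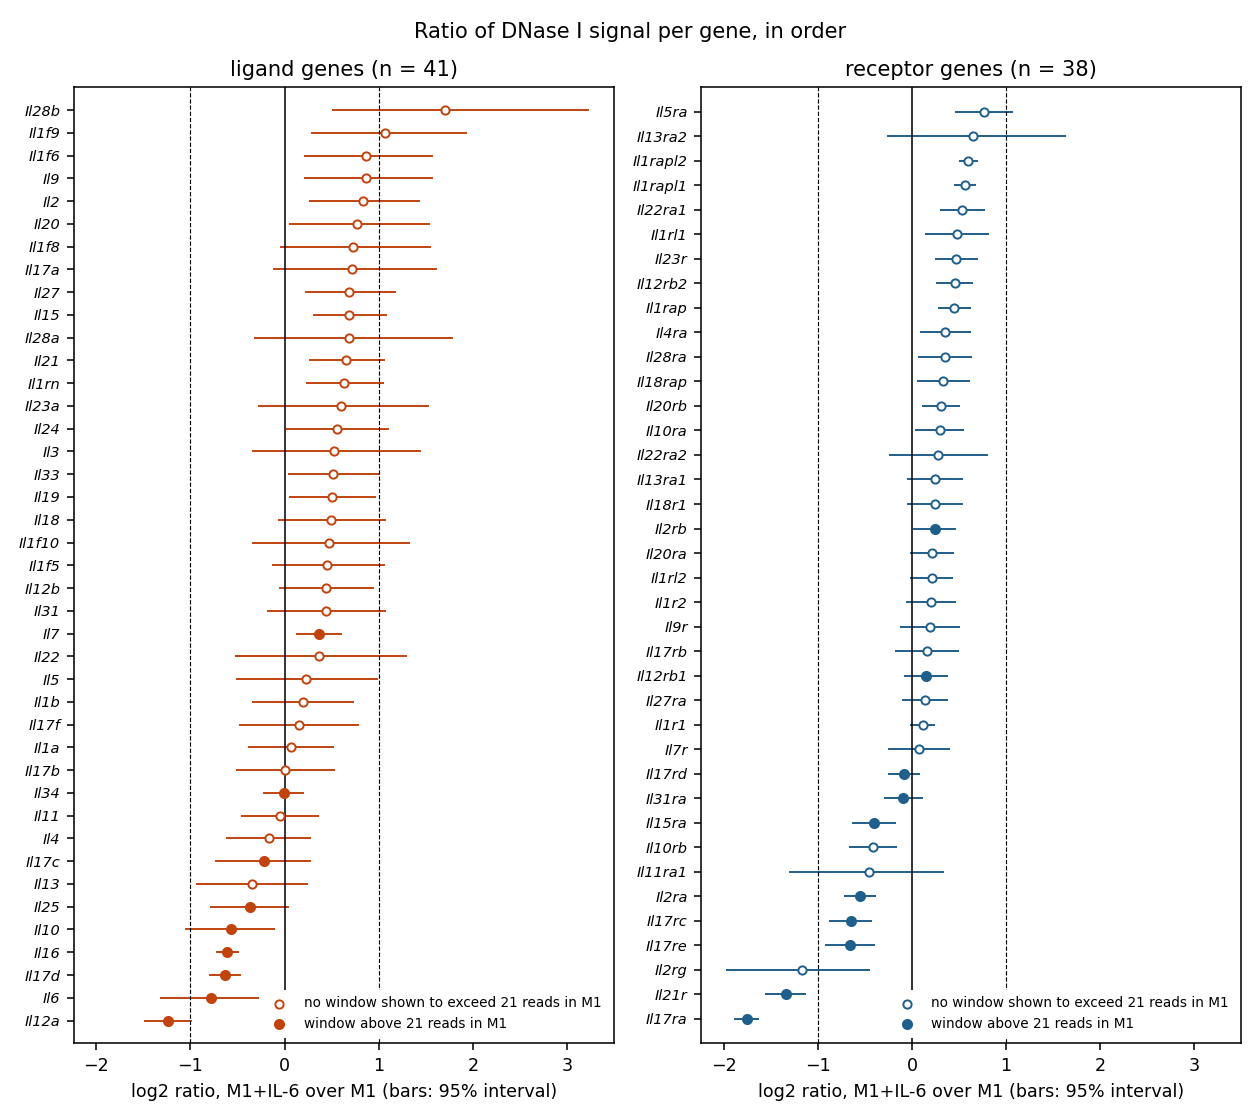
Log2 ratio of M1+IL-6 over M1 for each ligand gene (left, n = 41) and receptor gene (right, n = 38) that passed the read minimum, in order; bars are 95% counting intervals, dashed lines mark 2-fold, and filled points are genes that must hold a window above 21 reads in M1. At the deposited scaling filled points lie mostly at the low end, with 8 of 9 ligands and 8 of 10 receptors below 0. Of all 7976 genes with such a window, 6962 lay below 0, and the split uses the M1 reads that also enter the ratio. Single-window scaling moves all points to the right.

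The study took more than 21 reads as the mark of a hypersensitive site. By the lower bound of the strongest window, 20 of the 82 members must have held such a window in M1 (24.4%, where 35.3% of all genes did), namely 9 ligand genes, 10 receptor genes and Il4i1. In M1+IL-6 this was so for 10 members (12.2%, where 18.6% of all genes did), 5 ligand and 5 receptor genes. Of these, 8 members held a site in both libraries, 12 in M1 only by this bound, and Il31 and Il27ra in M1+IL-6 only by this bound. For Il31 the pieces described below show a window of 24 reads in M1 as well, and Il27ra passed through a bound of 21 reads before scaling. Among the 12, Il6 alone could not have held such a window in M1+IL-6, since the upper bounds of the others still allowed one. In 26 ligand genes and 5 receptor genes no window could have exceeded 21 reads in M1. This upper bound rises with the number of windows, whose median was 8 in ligand genes and 32.5 in receptor genes. These counts therefore do not compare signal between ligand and receptor genes, and the share over all genes was not counted. The members with a site in M1 had a median log2 ratio of -0.56 (ligands -0.57, receptors -0.47) and those without had 0.44 (ligands 0.52, receptors 0.29). All genes split in the same way gave -0.61 and 0.32, and since the split uses the M1 reads that also enter the ratio, part of this contrast is set by the split.

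**Figure D3:**
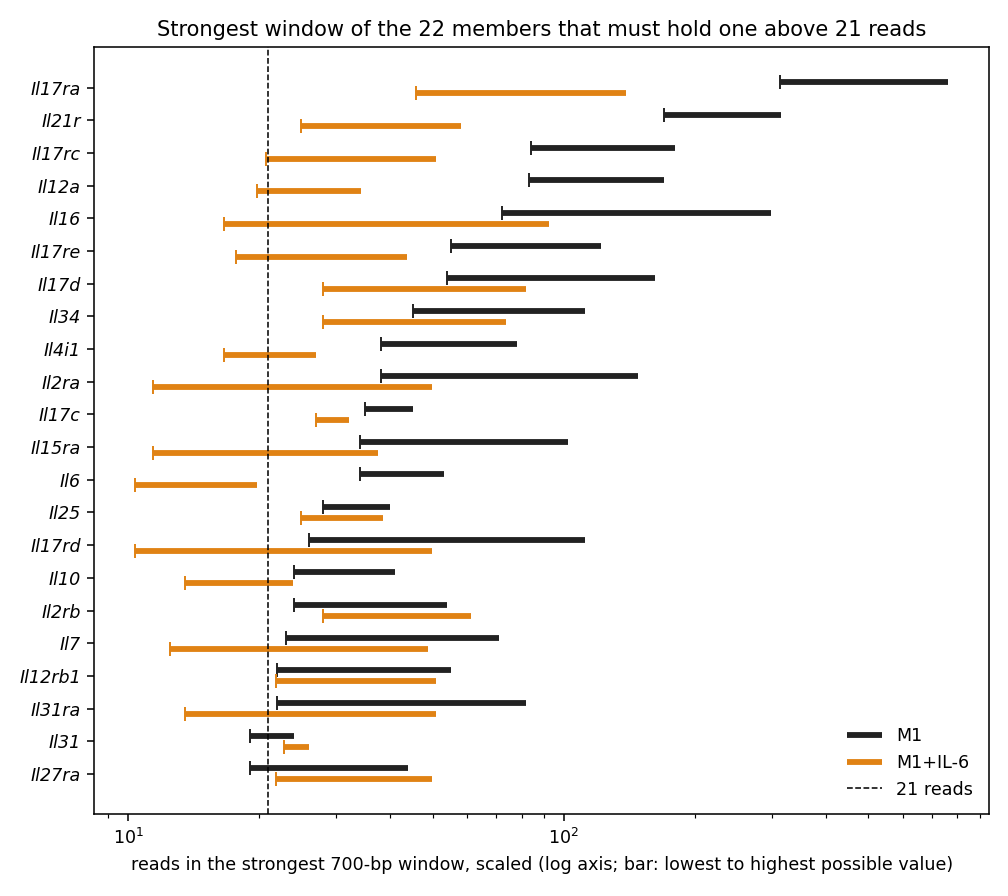
Lowest to highest possible number of scaled reads in the strongest 700-bp window (log axis) of the 22 members that must hold one above 21 reads in either library; black bars are M1, orange bars M1+IL-6, and the dashed line marks 21 reads. The bars of Il17ra (314 to 763 reads in M1, 44 to 134 before scaling in M1+IL-6) do not overlap, and Il6 in M1+IL-6 lies wholly below the line.

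Among ligand genes, the highest level in M1 and the highest mean over both libraries belonged to Il12a, which encodes the p35 subunit of IL-12. Its 11 windows held 438 reads in M1 and 179 in M1+IL-6, levels of 39.8 and 16.9, a ratio of 0.425 (95% interval 0.355 to 0.506) and a log2 ratio of -1.23. In M1+IL-6 the ligand genes Il17c (21.1), Il25 (17.6), Il31 (17.6), Il17d (17.6) and Il34 (17.2) had higher levels than Il12a. The strongest window of Il12a held 83 to 170 reads in M1 and 19 to 33 in M1+IL-6. A shorter transcript separates the first window, which contains the promoter printed above, from the rest: it held 25 reads in M1 and 16 in M1+IL-6, while the 10 windows behind it held 413 and 163. The strongest signal of Il12a therefore lay inside the gene and not in the promoter window. Il12b, which encodes the p40 subunit that pairs with p35, had 61 and 80 reads over 15 windows (log2 ratio 0.44, 95% interval of the ratio 0.964 to 1.93). The other ligand genes of the IL-12 family, Il23a (19 and 28 reads over 3 windows) and Il27 (61 and 95 over 9 windows), had log2 ratios of 0.60 and 0.69.

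IL-17 cytokines, which call neutrophils to inflamed tissue, included 3 of the 4 ligand genes with the highest mean over both libraries. Il17d held 709 and 441 reads over 26 windows, levels of 27.3 and 17.6, with a log2 ratio of -0.63 and a ratio of 0.646 (95% interval 0.572 to 0.728). Il17c, expressed mainly by epithelial cells, has 3 windows, which must have held 45, 16 and 13 reads in M1 and 26, 26 and 9 in M1+IL-6, because no other whole numbers give the listed mean and SD. Its strongest window was thus lower after IL-6 while the gene as a whole went from 74 to 61 reads (log2 ratio -0.22). Il25, the IL-17 family ligand that drives type 2 responses, held 114 and 85 reads over 5 windows (levels 22.8 and 17.6, log2 ratio -0.37). All 3 held a window above 21 reads in both libraries. In contrast, Il17a and Il17f, the ligands of Th17 cells, had low levels of 4.00 and 4.20 in M1 and log2 ratios of 0.72 and 0.15.

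Of the remaining ligand genes with a site in M1, Il16, which encodes a chemoattractant of CD4+ cells, was the largest. Its 113 windows held 1413 reads in M1 and 893 in M1+IL-6 (levels 12.5 and 8.20, log2 ratio -0.61), with a strongest window of 72 to 299 and of 16 to 89 reads. Shorter transcripts divide the gene, which lies on the minus strand: the 53 windows at the 3′ end held 1152 and 583 reads (ratio 0.526, 95% interval 0.475 to 0.581), whereas the 59 windows before them had levels of 4.34 and 5.21. At the deposited scaling the 3′ part of Il16 was thus lower and the 5′ part slightly higher in M1+IL-6. Windows of Il16 are shared with the coding span of Stard5, whose part in the signal was not tested. Such sharing with another coding span occurs in 9 members (Il10rb, Il11, Il11ra1, Il11ra2, Il16, Il17c, Il1rapl2, Il2 and Il2rg). Il10, encoding an anti-inflammatory cytokine, went from 96 to 62 reads over 7 windows (levels 13.7 and 9.20, log2 ratio -0.57), and its strongest window from 24 to 41 reads to between 13 and 23. Il34, whose product binds the receptor of CSF-1, was open at the same level in both libraries, with 346 and 331 reads over 20 windows (levels 17.3 and 17.2, log2 ratio -0.01) and a strongest window of at least 45 and 27 reads. Il7, a survival factor of lymphocytes, held a site in M1 by the bound over the whole span and had a ratio above 1 at the deposited scaling (250 and 311 reads over 57 windows, log2 ratio 0.37). Its 13 windows at the 5′ end, where a window of at least 43 reads must lie in M1, held 110 and 106 reads, and the 44 windows behind them 140 and 205. Il31, a cytokine of T cells, held 39 and 51 reads over 3 windows, and its strongest window was 24 reads in M1 and 25 in M1+IL-6.

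The largest ratios among ligand genes belonged to genes with very few reads. Il28b, which encodes an interferon lambda, had 7 reads in M1 and 23 in M1+IL-6 over 3 windows, which must be 5, 1 and 1 and then 13, 6 and 4. Its ratio was 3.25 with a wide 95% interval of 1.42 to 9.41. The neighbor Il28a had 14 and 22 reads (log2 ratio 0.69). Of the 32-base words of Il28a, 64.3% occur in Il28b, and 64.9% the other way. How reads with several matches were placed is not given in the sources used here, so the reads of these 2 genes are uncertain. Il1f9 (IL-36 gamma) had 20 and 41 reads over 9 windows, a ratio of 2.10 (95% interval 1.22 to 3.83). Il1f6 (IL-36 alpha) went from 30 to 53 reads over 14 windows, and Il9, a mast cell growth factor, from 30 to 53 over 5 windows, each with a log2 ratio of 0.86. In each of these 4 genes the strongest window stayed at 16 or fewer reads in both libraries, so no window reached the mark of a site.

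Receptor genes held the strongest signal of all members. Il17ra encodes the signaling chain shared by receptors of the IL-17 family. Its 28 windows held 2064 reads in M1 and 590 in M1+IL-6, levels of 73.7 and 21.9, a ratio of 0.297 (95% interval 0.270 to 0.325) and a log2 ratio of -1.75, the lowest of the 81 members. Its strongest window held 314 to 763 reads in M1 and 44 to 134 in M1+IL-6. Il17ra was at the 97.6 percentile of all genes in M1 and still at the 94.5 percentile in M1+IL-6. Il17ra thus had the highest level in M1 and, behind Il2rb, the next highest in M1+IL-6, where the 95% counting intervals of the levels of Il2rb (20.5 to 25.5), Il17ra (20.1 to 23.7) and Il17c (16.1 to 27.1) overlap.

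Of the other 4 receptor genes of this family, Il17rc and Il17re had intervals below 1 at the deposited scaling. Il17rc, which joins Il17ra to bind IL-17A and IL-17F, held 437 and 268 reads over 18 windows (levels 24.3 and 15.5, log2 ratio -0.65), and Il17re, which binds IL-17C, held 316 and 193 over 17 windows (levels 18.6 and 11.8, log2 ratio -0.66). These 2 genes lie next to each other on chromosome 6. The first 8 windows of Il17re, with the start site, held 49 and 70 reads, whereas the 9 windows behind them held 267 and 123 (ratio 0.479, 95% interval 0.383 to 0.594). The first 2 windows of Il17rc, with the start site, held 14 and 8 reads in M1 and 20 and 9 in M1+IL-6. Per window this was less than in the other 16 in M1 (25.9 reads), and close to them in M1+IL-6 (15.1 against 15.5). The start site of Creld1 also lies in the windows of Il17rc, and its part in the signal was not tested. Il17rd, a membrane regulator of growth factor signaling, had 605 and 550 reads over 90 windows (log2 ratio -0.08, 95% interval of the ratio 0.839 to 1.06), and Il17rb, a chain of the IL-25 receptor, had 145 and 156 over 18 windows (log2 ratio 0.16, 95% interval of the ratio 0.885 to 1.41). The parts of Il17rd differed, with 257 and 154 reads in a stretch of 19 windows and 348 and 396 in the other 71.

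**Figure D4:**
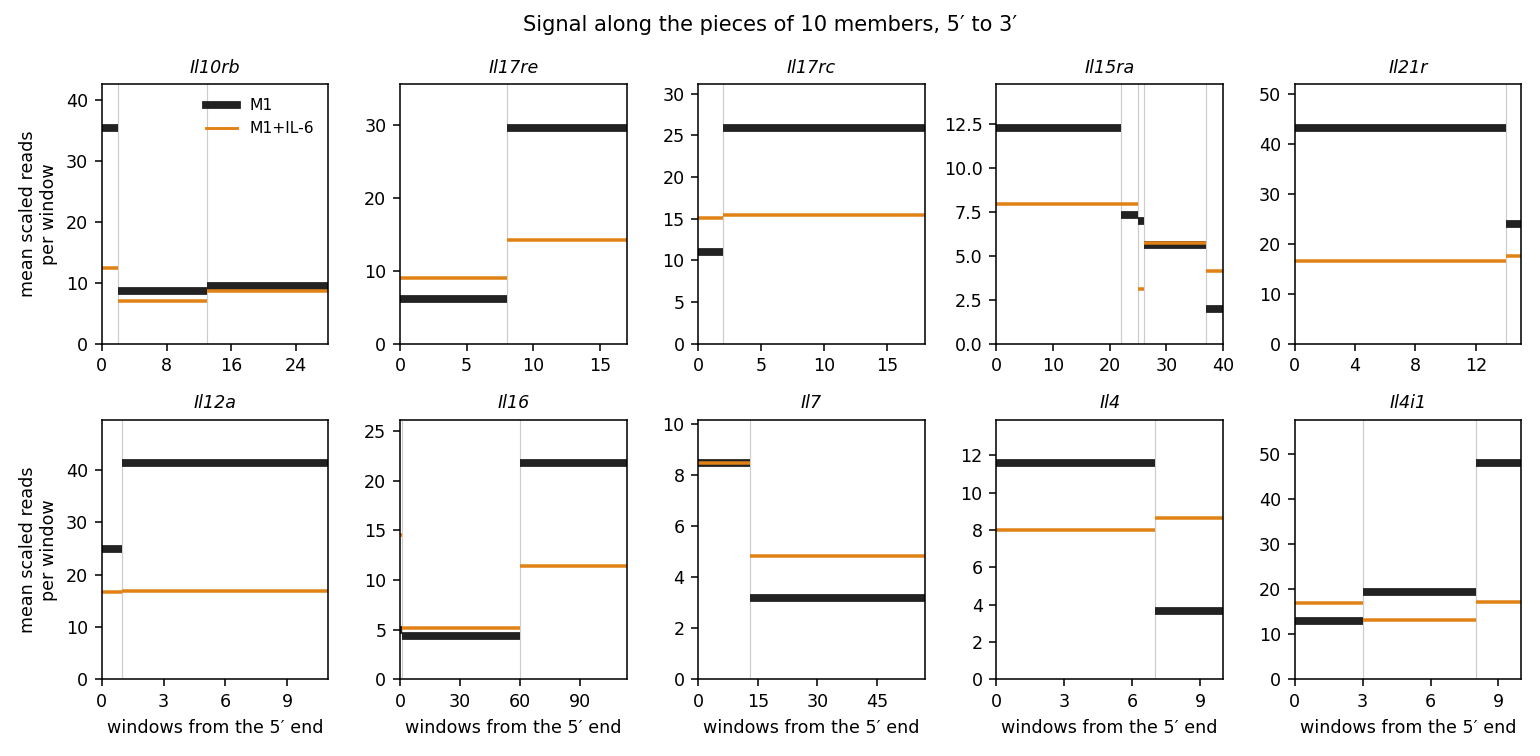
Mean scaled reads per window along 10 members, drawn from the 5′ to the 3′ end (x axis, windows of 700 bp; y axis from 0), for the pieces into which other listed transcripts divide each span; black lines are M1 and orange lines M1+IL-6. In M1 the piece at the 5′ end was the highest in Il10rb (35.5 reads per window), Il15ra (12.3), Il4 (11.6), Il7 (8.46) and Il21r (43.3). That piece holds the start site in Il10rb, Il15ra and Il4. In Il17re, Il17rc, Il12a, Il16 and Il4i1 the highest piece in M1 lay farther toward the 3′ end.

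The receptors that share the common gamma chain were split at the deposited scaling, with 4 ratios above 1 and 4 below. Il21r, the receptor of IL-21, held 630 reads in M1 and 240 in M1+IL-6 over 15 windows (levels 42.0 and 16.6), a ratio of 0.396 (95% interval 0.339 to 0.460) and a log2 ratio of -1.34. Its strongest window held 170 to 315 reads in M1 and 24 to 56 in M1+IL-6. The gene of the common gamma chain itself, Il2rg, held 52 and 22 reads over 6 windows (levels 8.67 and 3.81), a ratio of 0.445 (95% interval 0.254 to 0.736). A shorter transcript leaves the 2 end windows of Il2rg, of which the 5′ one holds the promoter printed above: these held 23 and 4 reads in M1 and 6 and 3 in M1+IL-6, and which of them was the stronger one is not recorded. The windows of Il2rg are shared with the annotated coding span of Gm20489. Il2ra (CD25, 710 and 468 reads over 68 windows, log2 ratio -0.55) and Il15ra (368 and 268 over 40 windows, log2 ratio -0.40), the private chains for IL-2 and IL-15, were also lower. In Il15ra the 22 windows at the 5′ end held 271 and 169 reads with a strongest window of at least 44 in M1 and of at most 31 in M1+IL-6, and the remaining 18 held 97 and 99.

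Of the 10 receptor genes with a site in M1, 2 had a ratio above 1, Il12rb1 and Il2rb, the chain that IL-2 and IL-15 share. Of the 3 receptor genes with a mean of at least 20 reads per window over both libraries, only Il2rb did. Among all genes a ratio above 1 was found in 1014 of 7976 with a site in M1, and in 320 of 2785 at that level. Il2rb held 291 reads in M1 and 331 in M1+IL-6 over 15 windows, levels of 19.4 and 22.9, a ratio of 1.18 (95% interval 1.01 to 1.39), and its strongest window held at least 24 and 27 reads. Il2rb lies on chromosome 15, whose genes had a higher median level than the table as a whole, at 15.1 reads per window in M1 and 15.3 in M1+IL-6. Il4ra (205 and 252 reads, log2 ratio 0.35), Il9r (161 and 177, 0.19) and Il7r (156 and 158, 0.07) completed this family. By the lower bound over the whole span none of them had to hold a site. The last 2 windows of Il4ra held 22 and 12 reads before scaling in M1+IL-6, so Il4ra did hold one there. Il4ra and Il21r are neighbors on chromosome 7 and their 95% intervals lay on opposite sides of 1.

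In the IL-10 receptor family 6 of 7 genes had ratios above 1 at the deposited scaling (51.7% of all genes did), 4 of them with an interval above 1 (29% of all genes). By the mean of both libraries, a ratio above 1 was found in 78.6% of all genes at 0 to 5 reads per window, 63.7% at 5 to 10 and 42.6% at 10 to 20. Il10rb, the accessory chain shared by receptors of IL-10, IL-22 and the interferon lambdas, was the exception in this family. It held 309 and 224 reads over 28 windows (levels 11.04 and 8.31), a ratio of 0.753 (95% interval 0.631 to 0.897). The first 2 windows, which hold the start site, contained 37 and 34 reads in M1 and 13 and 11 in M1+IL-6, a ratio of 0.355 (95% interval 0.211 to 0.564). The other 26 windows held 238 and 200 reads, a ratio of 0.873 (95% interval 0.719 to 1.06). Windows of Il10rb are shared with the coding span of Ifnar2. Il10ra, the ligand-binding chain of the IL-10 receptor, had 230 and 272 reads over 20 windows (log2 ratio 0.30).

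In 15 members cut into pieces, the piece at the 5′ end holds the start site. The mean of that piece was above the rest in 10 of them in M1 and in 8 in M1+IL-6. In all, 8 members have a piece of 1 or 2 windows at the 5′ end that holds the start site (Il10rb, Il12a, Il17d, Il17rc, Il1rn, Il23r, Il24 and Il31). In 3 of them, Il10rb, Il12a and Il31, such a window exceeded 21 reads in M1, and in 1, Il31, it did so in M1+IL-6. The piece was lower in M1+IL-6 than in M1 in 3 of the 8 (Il10rb, Il12a and Il17d), with an interval below 1 in Il10rb only. These counts of 5′ pieces were not made over all genes, so they do not set the members apart. Members whose windows include the start site had a median log2 ratio of 0.17 (n = 46) and the others of 0.35 (n = 35), beside -0.12 and 0.13 over all genes.

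The receptor genes with the largest ratios had low signal. Il5ra, the chain that binds IL-5 on eosinophils, held 145 and 237 reads over 47 windows (levels 3.09 and 5.23), a ratio of 1.69 (95% interval 1.37 to 2.10). Il13ra2, a decoy receptor of IL-13, had 17 and 26 reads over 21 windows (levels 0.810 and 1.29, log2 ratio 0.65, 95% interval of the ratio 0.829 to 3.12). Il1rapl2 and Il1rapl1, receptor-like genes of neurons that span 1708 and 1634 windows on chromosome X, had 1345 and 1961 reads (log2 ratio 0.60) and 1027 and 1459 reads (log2 ratio 0.56). Their narrow intervals, 1.41 to 1.62 and 1.36 to 1.60, come from the great length of the spans, since no level exceeded 1.19 reads per window. Among receptors of the IL-12 family, Il12rb1 held 300 and 320 reads over 19 windows with a window of at least 22 and 21 reads before scaling, and Il27ra, the IL-27 receptor, 274 and 291 over 18 windows (log2 ratios 0.15 and 0.14). Il31ra, the receptor chain of IL-31, held 414 and 374 reads over 52 windows (log2 ratio -0.09) with a window of at least 22 reads in M1.

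Reads of the IL-11 receptor genes depend on how repeated sequence was handled. Il11ra2 was the only member without a read in either library over its 9 windows, which allows up to 3 reads in each, and 100% of its 32-base words occur elsewhere in the genome. Its near copy Il11ra1, the functional IL-11 receptor gene, held 33 and 23 reads over 9 windows (levels 3.67 and 2.65, log2 ratio -0.46), and 61.8% of its words occur in Il11ra2. Over 10% of words were repeated in 20 members and over 50% in 4 members, namely Il11ra1, Il11ra2, Il28a and Il28b. Leaving these 4 genes out gave medians of 0.44 for ligands and 0.21 for receptors, and left Il1f9 as the 1 member at least 2-fold higher.

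Of the members that are neither ligand nor receptor, Il4i1 held 232 reads in M1 and 146 in M1+IL-6 over 10 windows (levels 23.2 and 15.2), a ratio of 0.654 (95% interval 0.527 to 0.807). Its last 2 windows held 73 and 23 reads in M1 and 18 and 15 in M1+IL-6, while the first 3 held 39 and 49 in all. Il18bp held 32 and 36 reads over 4 windows (levels 8.0 and 9.34, log2 ratio 0.22).

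In the IL-1 family all 10 ligand genes (Il1a, Il1b, Il1rn, Il18, Il33 and 5 Il1f genes) and all 9 genes of the IL-1 receptor family had ratios above 1 at the deposited scaling, with log2 ratios of 0.07 to 1.07 and of 0.11 to 0.60. By the lower bound over the whole span, none of the 19 had to hold a window above 21 reads. That bound does not exclude one, as in Il1r1, whose strongest window held 18 to 104 reads in M1. In Il1rl1 a piece of 8 windows must hold one of at least 25 reads before scaling in M1+IL-6. The interval lay above 1 in 4 of the ligand and 5 of the receptor genes, and in 29% of all genes. A ratio above 1 was found in 51.7% of all genes. By the mean of both libraries, it was found in 78.6% of genes at 0 to 5 reads per window and in 63.7% at 5 to 10. The median levels of the IL-1 family ligand genes were 4.56 in M1 and 6.68 in M1+IL-6, and those of the receptor genes 4.26 and 5.48. Many of these genes are neighbors. The 6 receptor genes from Il1r2 to Il18rap, within 447 kb of chromosome 1, had log2 ratios of 0.11 to 0.48, and the 6 ligand genes from Il1f8 to Il1rn, within 195 kb of chromosome 2, of 0.46 to 1.07. In the latter Il1rn, the antagonist of IL-1, held 84 and 126 reads over 19 windows, a ratio of 1.55 (95% interval 1.17 to 2.08).

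Altogether 39 members lay within 500 kb of another member, in 14 groups. At the deposited scaling every ratio was above 1 in 9 of the groups and below 1 in 2 (Il2ra with Il15ra, Il17re with Il17rc), and 3 groups were mixed. Taken singly, 71.6% of the members and 51.7% of all genes had a ratio above 1. Groups of neighbors among all genes were not counted. The Il10 group on chromosome 1 was one of the mixed groups. There Il24, Il20 and Il19 had log2 ratios of 0.56, 0.77 and 0.51, with intervals above 1, and Il10 had -0.57 with an interval below 1, all within 142 kb. The T cell cytokine genes Il2 (40 and 69 reads, log2 ratio 0.83) and Il21 (86 and 131, 0.66), neighbors on chromosome 3, were both above 1. In the type 2 group of chromosome 11, Il4, Il13 and Il5 had log2 ratios of -0.16, -0.34 and 0.23, each with an interval that includes 1. The parts of Il4 differed, with 81 and 54 reads in its 7 windows at the 5′ end and 11 and 25 reads in the last 3.

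**Figure D5:**
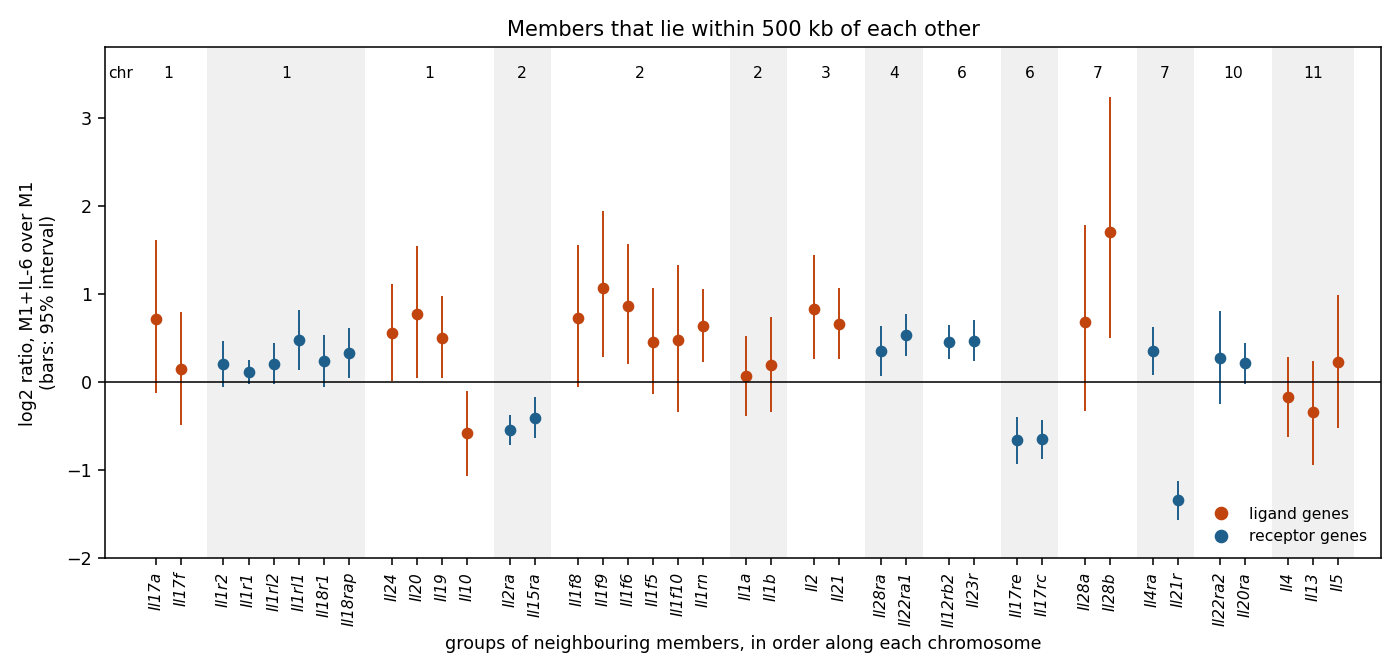
Log2 ratio of M1+IL-6 over M1 (points, with 95% counting intervals) for the 39 members that lie within 500 kb of another member, in order along each chromosome and separated by shading. At the deposited scaling the 6 IL-1 receptor genes of chromosome 1 and the 6 Il1f and Il1rn genes of chromosome 2 all lie above 0, while Il10 and Il21r lie below 0 beside neighbors above 0; single-window scaling moves all points up.

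Levels followed base composition. Across the 81 members the GC content of the span had a rank correlation (Spearman) of 0.69 with the level in M1, of 0.74 with the level in M1+IL-6 and of -0.39 with the log2 ratio, and across all 18472 genes of 0.66, 0.77 and -0.21. The points share their library, its depth and its DNase I digestion, and genes are not replicates, so this describes the table only. Median GC content was 45.7% for ligand genes and 44.3% for receptor genes. The part of base composition in the ratios was not tested.

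Of 18 partner genes that serve these cytokines and receptors, 3 were at least 2-fold lower in M1+IL-6 and 0 were at least 2-fold higher, with a median log2 ratio of -0.11 at the deposited scaling. The 3 are 16.7% of the partners, where 13.4% of all genes were as much lower. Pycard, the adaptor of inflammasomes, held 187 and 46 reads over 3 windows (log2 ratio -1.96), and Casp1, the protease that cuts the IL-1 beta precursor, 132 and 46 over 13 windows (log2 ratio -1.46). Myd88, the adaptor of IL-1 receptors, held 198 and 95 reads over 4 windows (log2 ratio -1.0). Its ratio of 0.499 (95% interval 0.386 to 0.639) lay barely past the 2-fold cut, and the partners were not counted under other scalings. At the other end, Nlrp3, an inflammasome sensor, held 205 and 249 reads (log2 ratio 0.33), and Csf2rb2, a beta chain of the IL-3 receptor, 251 and 291 (log2 ratio 0.27). The interval lay below 1 in 7 partners (38.9%, all genes 34.4%) and above 1 in 2 (11.1%, all genes 29%).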

How the data were processed

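Processed DHS-seq values of M1 and M1+IL-6 cells were analyzed, 1 library each. The authors trimmed the reads and aligned them to NCBIM37 (mm9) with BWA. The BWA version and the program that summarized reads per transcript are not given in the sources used here. In the deposited table the signal is given as a mean and an SD over windows of coding spans. Methods and a figure legend of the study differ on single or paired reads. The table held no read numbers per site, as had been planned for. Reads were recovered as mean times windows divided by the worth of 1 read. All products in 55432 rows lay within 0.05 of a whole number, and the window size of 700 bp gave all listed window numbers. The strongest window was bounded from sum and sum of squares, and reads of pieces came from differences between transcripts. Each gene was represented by its transcript with most windows. On simulated windows of 16485 genes, recovery of reads and of 31698 pieces was complete, and 95.3% of intervals of this comparison contained the simulated ratio.

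The members and lists were chosen with earlier results of these data known, and roles and families were assigned from textbook knowledge. Named genes are Il1b and Il6, the 4 ligand and 4 receptor genes with the highest mean over both libraries and with the largest and smallest log2 ratio, all members at least 2-fold different, without reads or with a window above 21 reads, and the 2 highest and 2 lowest partners. Neighbors, families, copies, Il10rb and the other genes named were added after their values were seen. Spans of all 182 member rows equal GENCODE M1 coding spans. No test across libraries was possible. The other experiments of the study were not used here. Python 3.11.15, numpy 2.4.6, pandas 2.3.3, scipy 1.17.1 and matplotlib 3.10.9 were used. A further promoter sequence is not reported here.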

Additional observations from a re-analysis of the deposited data

How the results depend on the processing

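Scaling on the total of coding spans, no scaling, a median or trimmed mean of ratios over genes, 1 read added, the transcript with fewest windows and no minimum of reads moved none of the counts by over 1.5 times, none of the medians by more than the median half-width of the members' intervals (0.39 on the log2 scale) and Il1b and Il6 by less than their intervals. The genes counted did change with the transcript with fewest windows. There 5 members were at least 2-fold lower (Il10rb, Il12a, Il17ra, Il17re and Il21r, without Il2rg) and 3 higher (Il1f9, Il28b and Il4). With 5 reads added 1 member was at least 2-fold higher, and with more than 50 reads required 0 were, since Il28b and Il1f9 have too few reads. At a fold of 1.5, 10 members were lower and 17 higher. An alternative chosen after seeing the data, scaling on the median ratio of 544 single windows, made a read of M1+IL-6 worth 3.68 and gave 0 members lower and 77 higher, medians of 2.27 for ligands and 2.04 for receptors, 2.015 for Il1b and, reversed, 1.03 for Il6. The difference of receptors minus ligands was -0.24 in both scalings, because a scaling moves all genes by nearly the same amount. With more than 50 reads required it was -0.16. By the upper bound of the strongest window 50 members could hold one above 21 reads in M1 and 52 in M1+IL-6. With the bounds of pieces, also added after seeing the data, 24 and 14 members must hold one by these bounds, adding Il10rb, Il2rg, Il31 and Il4 in M1 and Il17rc, Il17re, Il1rl1 and Il4ra in M1+IL-6. Il4i1 is not in the count of 14. Its first 3 windows must have held 22, 17 and 10 reads before scaling in M1+IL-6, so it too held one there. No paired analysis was possible because there is 1 library for each condition. The scaling and the reads per gene both limit the ratios of ligand genes, and reads outside coding spans are not analyzed here.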

Other observations

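The members on chromosome X had a lower median level than those on autosomes. Il2rg, Il13ra1, Il13ra2, Il1rapl1 and Il1rapl2 had a median of 0.810 reads per window in M1 and 1.29 in M1+IL-6, against 6.75 and 8.0 for the 76 members on autosomes. All X genes had medians of 2.70 and 2.65 and all autosomal genes of 9.52 and 9.42. Il2rg stood above the other X members in M1 with 8.67 reads per window, beside 3.81 in M1+IL-6. Il13ra1, a chain of the IL-13 receptor with an X-linked gene, had 183 and 209 reads over 82 windows (levels 2.23 and 2.65).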
